A study of Homo sapiens with 14 samples.

Results

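The 2 small interfering RNAs (siRNAs) against EZH2 were compared with each other in KYSE510, an established line of esophageal squamous cell carcinoma. Of the 14 samples of the study, 4 entered this comparison: 2 libraries of cells given siEZH2-1 and 2 of cells given siEZH2-2. Both groups were harvested 48 h after transfection with lipofectamine RNAiMAX. A further 2 libraries, from cells given the control siRNA siNC in the same series, served to show which siRNA had moved a gene. Genes were taken by 1 rule, a mean of at least 1 FPKM over these 6 libraries, which kept 11585 of the 63677 genes listed. AC016629.8 lay just inside this limit with a mean of 1.0017 FPKM, and RP11-73M18.7 just outside it with 0.99833 FPKM. The study also sequenced RNA after 2 siRNAs against LAT1 in the same line (4 libraries, with 2 siNC libraries of their own), and it holds 2 CUT&Tag samples that were not analysed here. All RNA libraries came from 1 cell line, and no label says whether the libraries of a group were separate cultures, so p-values measure the spread between these libraries only.

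An siRNA is a short RNA duplex, 1 strand of which is loaded into an Argonaute protein and guides it to messenger RNAs of matching sequence, which are then cut or destabilised. Besides the intended target, a guide strand can lower transcripts that match its seed, the few bases near its 5′ end, so siRNAs of different sequence against 1 target are commonly used side by side. EZH2 is the catalytic subunit of Polycomb repressive complex 2 (PRC2), which methylates lysine 27 of histone H3 and keeps genes silent. The sequences of the siRNAs were not used here.

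Values are read as FPKM, that is reads or fragments relative to gene length and library depth; no label names the unit. Differences are on the log2(FPKM + 1) scale, which understates changes of low genes, and are given as siEZH2-2 minus siEZH2-1. A gene was called at a limma adjusted p under 0.05. Every adjusted p here is limma's, adjusted by Benjamini-Hochberg over the 11585 genes, or over the genes tested in the LAT1 table for siLAT1. An exact permutation of 2 libraries against 2 cannot go below p = 0.333, so no gene could be called that way.

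The libraries were of like depth, 21120000 to 27240000 counted reads or fragments as recovered from the steps between low values. Libraries of 1 group correlated across genes at 0.993 to 0.994 (Pearson's r), and their log2 differences had an SD of 0.175 to 0.194. All 10 markers of a squamous carcinoma line stood at 1 FPKM or more, led by KRT5 at a mean of 490.0 FPKM. Of these 10 markers 5 were lower with siEZH2-2 than with siEZH2-1 and 1 was higher, with a median of -0.30 log2. Their summed level was 1270 to 1290 FPKM with siEZH2-1, 1080 to 1160 FPKM with siEZH2-2 and 1200 to 1280 FPKM with siNC, and its part in the results below was not tested. Among the called markers PERP kept its call with any 1 library left out, while KRT17, SFN and DSP lost theirs without siEZH2-1 replicate 2. Of the fibroblast markers 1 of 11 reached 1 FPKM (COL1A1, 1.23 FPKM, with 4 at 0), of the immune markers 1 of 15 (CSF1R, 1.09 FPKM, with 3 at 0) and of the endothelial markers 0 of 8 (ESAM was highest at 0.262 FPKM, with 2 at 0).

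The shared target came out alike. EZH2 (ENSG00000106462) stood at 6.63 and 7.24 FPKM with siEZH2-1, at 6.40 and 6.04 FPKM with siEZH2-2, and at 17.05 and 17.10 FPKM with siNC. Both siRNAs left it well under the control, and the siEZH2-2 libraries lay slightly under the siEZH2-1 libraries without overlap. The difference between the siRNAs came to -0.14 log2 with a 95% interval from -0.30 to 0.02 and did not pass the test (adjusted p = 0.223). Against siNC the change was -1.19 log2 with siEZH2-1 (adjusted p = 2.31e-04) and -1.32 log2 with siEZH2-2 (adjusted p = 1.48e-04). In bulk RNA, fewer cells that carry a transcript and less of it per cell cannot be told apart, here and in all that follows.

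Elsewhere the transcriptomes differed widely. Between the siRNAs 1883 genes were called, 16.3% of those tested. Of these, 857 were higher with siEZH2-2 (7.4%) and 1026 lower (8.86%). Most of the called differences were small: 1190 (63.2%) were under 0.5 log2, 588 lay between 0.5 and 1 log2, and 105 (0.906% of the genes tested) reached 1 log2, 61 of them higher and 44 lower. The median size among called genes was 0.423 log2, and the median over all tested genes was -0.00 log2. All 1883 called genes had libraries that did not overlap between the siRNAs, as did 57.8% of all tested genes. The total dropped with any 1 of the 6 libraries left out, furthest without siEZH2-1 replicate 2. Leaving out a library leaves 1 in its group and fewer residual degrees of freedom. The drop therefore does not show that the calls rest on that library. The genes at 1 log2 or more were chosen as called and large in the fit to all 6 libraries. Most of them stayed called with any 1 library left out, which follows in part from this choice. For most gene lists below, the lowest count with 1 library left out is given beside the count, with a library that gives it. It is given only where it is lower by more than 1.5 times. Each list count of the fit to all 6 libraries is to be read beside the 7.4% higher and 8.86% lower over all tested genes. The list counts with a library left out are not, since the counts over all tested genes then drop as well. By kind of gene, 17.2% of 10122 protein-coding genes, 17.5% of 189 long noncoding RNAs and 7.86% of 318 pseudogenes were called.

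**Figure D1:**
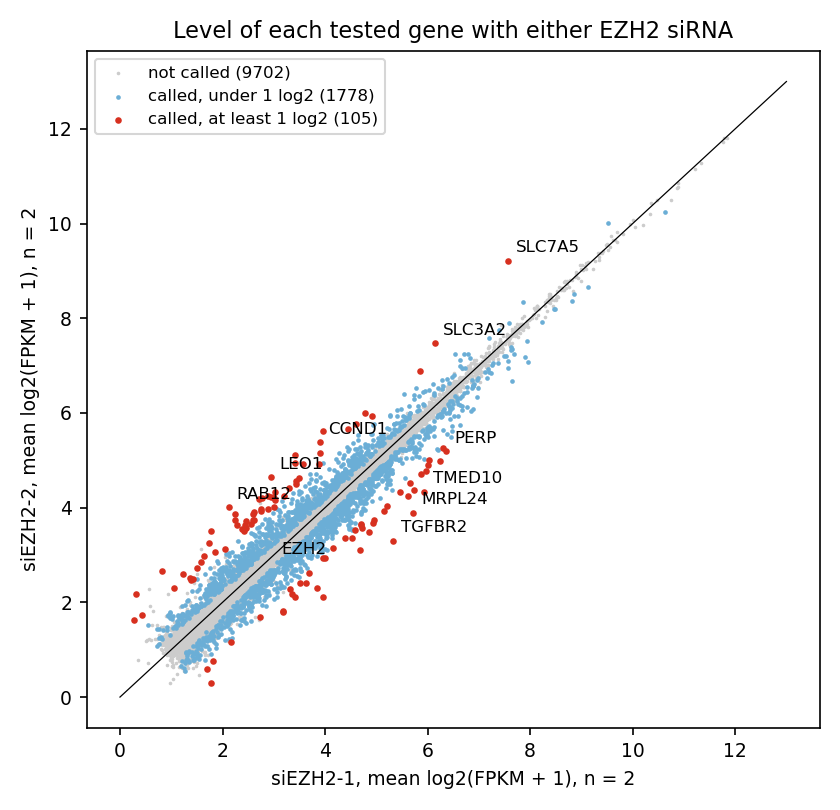
Mean log2(FPKM + 1) with siEZH2-1 (horizontal) and siEZH2-2 (vertical), 2 libraries each, for 11585 genes; blue and red points are called genes under and at or above 1 log2, and the line marks equal levels. EZH2 lies close to the line, while SLC7A5, SLC3A2, RAB12 and LEO1 lie above it and TGFBR2, MRPL24, TMED10 and PERP below it.

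For most of the large differences, siNC lay near or beyond the siRNA with the higher level. The siNC mean was placed on a scale on which the siEZH2-1 mean is 0 and the siEZH2-2 mean is 1. Values up to 0.25 were read as near or beyond siEZH2-1 and values from 0.75 as near or beyond siEZH2-2. Of the 61 genes higher with siEZH2-2 by at least 1 log2, siNC lay near or beyond siEZH2-2 for 45 (73.8%), between the siRNAs for 13 and near or beyond siEZH2-1 for 3. Of the 44 lower genes, siNC lay near or beyond siEZH2-1 for 34 (77.3%), between for 7 and near or beyond siEZH2-2 for 3. So siNC lay near or beyond the siRNA with the higher level for 79 of the 105 (75.2%). This share was 64.7% when siEZH2-2 replicate 1 was left out. Among all called genes the pattern was weaker. Of the 857 higher genes, siNC lay near or beyond siEZH2-2 for 49.9% and near or beyond siEZH2-1 for 23.8%. Of the 1026 lower genes, it lay near or beyond siEZH2-1 for 50.1% and near or beyond siEZH2-2 for 25.0%. Over all tested genes, in both directions together, siNC lay near or beyond siEZH2-1 for 40.4%, between for 13.7% and near or beyond siEZH2-2 for 45.9%. Where siNC lay beyond the siRNA with the higher level, both siRNAs were under siNC, as for CCND1 (12.7% and 37.2% of siNC). These positions use the same siNC libraries on both sides and are given as a description. Against siNC itself, 3156 genes (27.2%) were called with siEZH2-1 and 2874 (24.8%) with siEZH2-2.

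**Figure D2:**
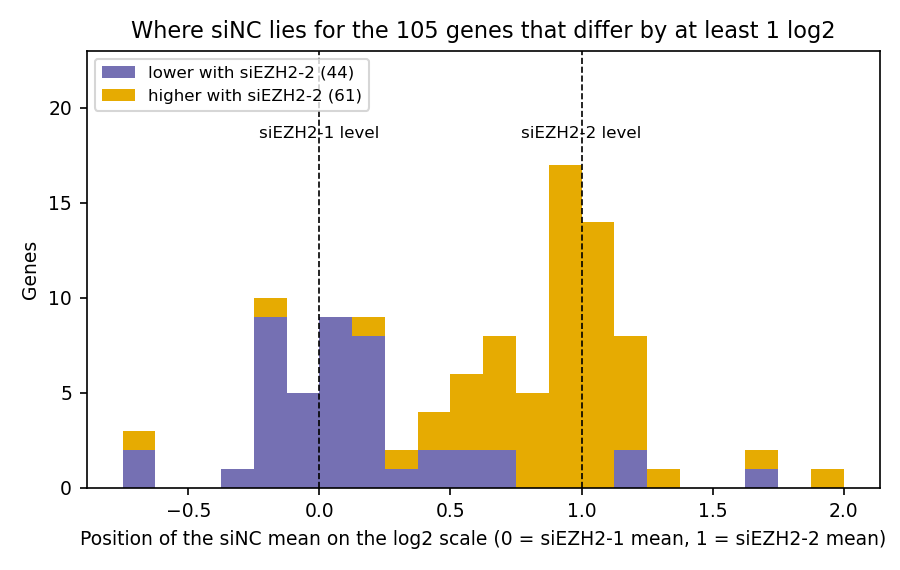
Number of genes (vertical) by the position of the siNC mean on a scale where 0 is the siEZH2-1 mean and 1 the siEZH2-2 mean (horizontal), for the 61 genes higher and the 44 genes lower with siEZH2-2 by at least 1 log2. The higher genes gather around 1 and the lower genes around 0.

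The transporter gene of LAT1 and that of its partner were low with siEZH2-1. SLC7A5 (ENSG00000103257), which encodes LAT1, a carrier of large neutral amino acids, stood at 184 and 193 FPKM with siEZH2-1, at 596 and 591 FPKM with siEZH2-2 and at 733 and 777 FPKM with siNC. The siRNA groups were far apart, a difference of 1.65 ± 0.055 log2 (SE; adjusted p = 8.66e-05), and siEZH2-2 lay closer to siNC. Against siNC, SLC7A5 fell by 2.00 log2 with siEZH2-1 (adjusted p = 2.50e-05) and by 0.35 log2 with siEZH2-2 (adjusted p = 0.00642). SLC3A2 (ENSG00000168003), the heavy chain that brings LAT1 to the cell surface, stood at 67.7 and 71.6 FPKM with siEZH2-1, at 180 and 172 FPKM with siEZH2-2 and at 189 and 209 FPKM with siNC. It differed by 1.33 ± 0.066 log2 (adjusted p = 1.78e-04). With siEZH2-1 it fell by 1.50 log2 against siNC (adjusted p = 1.09e-04), and with siEZH2-2 its difference from siNC was -0.17 log2 (adjusted p = 0.107). SLC43A2, another carrier of large neutral amino acids, completed the 3 tested genes of system L, and its order was another one. It measured 3.73 and 3.71 FPKM with siEZH2-1, 6.46 and 6.10 FPKM with siEZH2-2 and 2.98 and 3.56 FPKM with siNC, so here siEZH2-2 was the siRNA that stood away (difference between the siRNAs 0.62 log2, adjusted p = 0.00574).

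Carriers outside system L were called in both directions. Of 17 tested, 2 were higher and 2 lower with siEZH2-2, beside 7.4% higher and 8.86% lower over all tested genes. Their median was -0.01 log2. SLC7A11, the cystine carrier that also pairs with the SLC3A2 heavy chain, went the other way from SLC7A5. Its level was low throughout, 2.39 and 2.12 FPKM with siEZH2-1, 0.50 and 0.53 FPKM with siEZH2-2, and 3.13 and 2.20 FPKM with siNC. The difference was -1.10 ± 0.135 log2 (adjusted p = 0.00355). SLC6A9, a glycine carrier, was lower by -0.50 log2 (adjusted p = 0.0074). The 2 higher carriers, SLC7A1 (0.47 log2) for cationic amino acids and SLC6A6 (0.46 log2) for taurine, were no longer called without siEZH2-1 replicate 2 or without siEZH2-2 replicate 2, nor SLC6A6 without siEZH2-1 replicate 1.

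Over all tested genes 7.4% were higher with siEZH2-2 and 8.86% lower. Genes of the methionine cycle and of polyamines were higher in 7 of 23 and lower in 2, with a median of 0.13 log2. Without siEZH2-1 replicate 2 the higher count was 4 and the lower count 0. MAT2B, the regulatory subunit of the enzyme that makes S-adenosylmethionine, measured 10.1 and 9.30 FPKM with siEZH2-1, 33.1 and 34.3 FPKM with siEZH2-2 and 30.1 and 28.1 FPKM with siNC. The siEZH2-1 libraries alone were low (difference between the siRNAs 1.70 ± 0.065 log2, adjusted p = 1.45e-04). APIP, an enzyme of the methionine salvage pathway, had the same order, with 4.16 and 3.55 FPKM against 11.6 and 11.3 FPKM and 10.4 and 10.2 FPKM with siNC (1.36 ± 0.077 log2, adjusted p = 2.71e-04). MAT2A, the catalytic subunit beside MAT2B, differed less (0.35 log2, adjusted p = 0.00525), as did AHCYL1 (0.51 log2, adjusted p = 0.00291), a relative of the enzyme that clears S-adenosylhomocysteine.

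The amino acid response, the set of genes that ATF4 induces when amino acids are short or the endoplasmic reticulum is stressed, was tested in 30 genes. Of these 20 were not called, 9 were lower with siEZH2-2 and 1, SLC3A2, was higher, with a median of -0.16 log2. In the same fit 8.86% of all tested genes were lower. The lower count of the list dropped with any 1 library left out, as did that over all tested genes. ASNS, asparagine synthetase, measured 30.7 and 34.8 FPKM with siEZH2-1, 17.6 and 17.1 FPKM with siEZH2-2 and 30.6 and 29.5 FPKM with siNC (-0.88 ± 0.071 log2, adjusted p = 7.78e-04). Here siEZH2-2 alone was low. TRIB3, a pseudokinase that this pathway induces, gave another order. It stood at 24.7 and 28.0 FPKM with siEZH2-1, 15.2 and 13.97 FPKM with siEZH2-2 and 13.6 and 14.5 FPKM with siNC, and so it rose with siEZH2-1 (0.86 log2 against siNC, adjusted p = 9.12e-04). In the list of mTORC1, the kinase complex that senses amino acids, 1 of 32 was higher and 3 lower, or 0 higher without siEZH2-1 replicate 1. MTOR, its kinase, was at 9.35 and 8.90 FPKM with siEZH2-1 and at 5.39 and 6.29 FPKM with siEZH2-2, with siNC at 9.44 and 9.20 FPKM (-0.57 log2, adjusted p = 0.00601). WDR59, part of the GATOR2 complex upstream of mTORC1, was lower by -0.44 log2 (adjusted p = 0.00542).

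**Figure D3:**
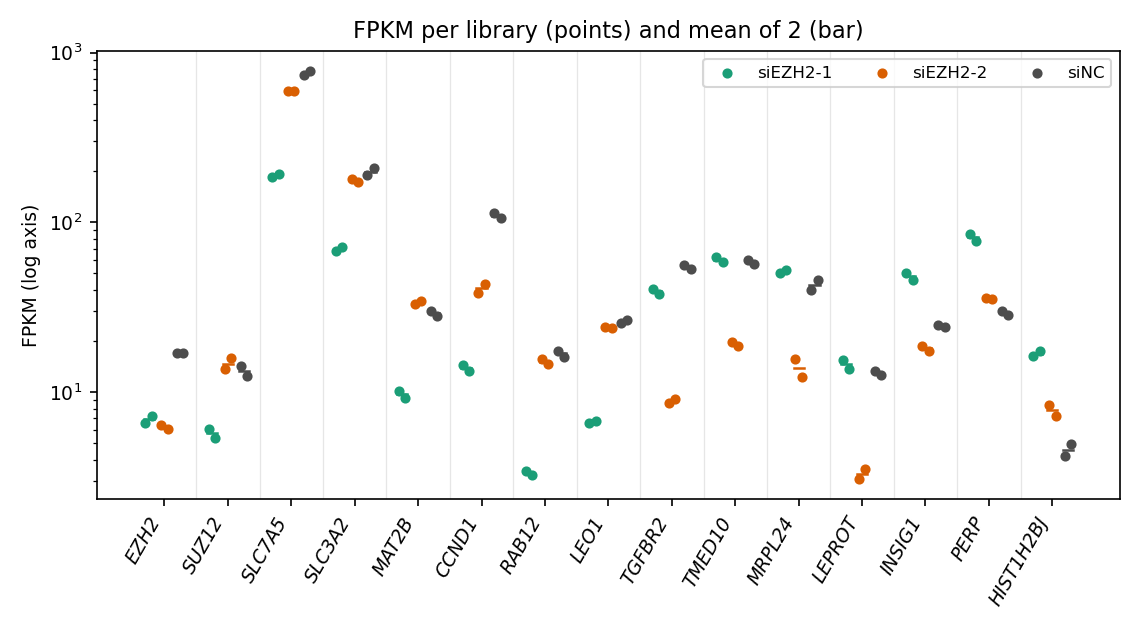
FPKM of 15 genes in each library (points, log axis) and the mean of the 2 libraries of a group (short bars) for siEZH2-1, siEZH2-2 and siNC. The siEZH2-1 points are lowest for SLC7A5, SLC3A2, MAT2B, CCND1, RAB12 and LEO1, and the siEZH2-2 points are lowest for TGFBR2, TMED10, MRPL24, LEPROT and INSIG1.

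A partner subunit of EZH2 was called between the siRNAs. SUZ12, the PRC2 subunit without which the complex falls apart, measured 6.08 and 5.36 FPKM with siEZH2-1, 13.6 and 15.9 FPKM with siEZH2-2 and 14.2 and 12.4 FPKM with siNC. Its difference was 1.23 ± 0.103 log2 (adjusted p = 8.70e-04). It fell with siEZH2-1 by 1.09 log2 against siNC (adjusted p = 9.87e-04), and with siEZH2-2 it differed from siNC by 0.14 log2 (adjusted p = 0.371). It was the 1 called gene of 13 PRC2 genes tested, whose median was 0.01 log2. EED, the third core subunit, stood between 10.6 and 11.2 FPKM in all 4 siEZH2 libraries (difference -0.01 log2, 95% interval -0.14 to 0.13). The related methyltransferase EZH1 differed by -0.15 log2 (adjusted p = 0.202), and the histone-binding subunits RBBP4 and RBBP7 by 0.13 and 0.01 log2. In PRC1, the complex that ubiquitinates histone H2A, 1 of 24 was higher and 3 lower. Both counts were 0 without siEZH2-1 replicate 1. The largest of these were BMI1 (0.52 log2), not called without any 1 of the 4 siEZH2 libraries, and RYBP (-0.63 log2). The machinery of small RNA silencing had 0 of 24 higher and 5 lower, or 1 lower without siEZH2-1 replicate 1. DROSHA, the nuclease that releases microRNA precursors, measured 20.2 and 20.5 FPKM with siEZH2-1, 13.2 and 14.2 FPKM with siEZH2-2, and 11.98 and 11.45 FPKM with siNC (-0.54 log2, adjusted p = 0.00262), so that siEZH2-1 was the group apart.

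TGFBR2, the type II receptor that binds TGF-beta and starts its signal, was lowest with siEZH2-2 relative to siEZH2-1 among the genes named by rank. It measured 40.6 and 37.8 FPKM with siEZH2-1, 8.66 and 9.07 FPKM with siEZH2-2, and 56.3 and 52.9 FPKM with siNC. The difference was -2.03 ± 0.063 log2 (adjusted p = 8.66e-05). Both siRNAs lowered it against siNC, siEZH2-1 to 71.7% of the control and siEZH2-2 to 16.2%. Of 24 ligands, receptors and SMAD proteins of this pathway 4 were higher and 2 lower, with a median of 0.06 log2, and 1 was higher without siEZH2-1 replicate 2 and 1 lower without siEZH2-1 replicate 1. SMAD3, which carries the signal to the nucleus, was higher with siEZH2-2, at 9.47 and 9.93 FPKM against 6.68 and 6.43 FPKM (0.50 log2, adjusted p = 0.00432). Both lay under the 12.6 and 11.8 FPKM of siNC. For these lists the shares over all tested genes were 7.4% higher and 8.86% lower. Of 18 target genes 3 were higher and 4 lower (median -0.12 log2), or 1 higher without siEZH2-1 replicate 2 and 2 lower without siEZH2-1 replicate 1. THBS1, a matrix protein that activates latent TGF-beta, measured 80.4 and 74.4 FPKM with siEZH2-1, 34.3 and 40.1 FPKM with siEZH2-2 and 132 and 122 FPKM with siNC (-1.04 log2, adjusted p = 8.79e-04).

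Most cell cycle genes were not called. CCND1 (cyclin D1), the regulatory partner of CDK4 and CDK6, measured 14.5 and 13.3 FPKM with siEZH2-1, 38.5 and 43.2 FPKM with siEZH2-2 and 113 and 106 FPKM with siNC. The siRNAs differed by 1.49 ± 0.076 log2 (adjusted p = 1.78e-04), and each was under siNC, at 12.7% and 37.2% of the control. Among 29 cyclins and regulators of G1 to S, 4 were higher and 8 lower (median 0.02 log2), which became 1 higher without siEZH2-1 replicate 1 and 3 lower without siEZH2-1 replicate 2. SKP2, which marks CDK inhibitors for degradation, was lower with siEZH2-2, at 27.8 and 31.8 FPKM against 46.3 and 42.5 FPKM (-0.56 log2, adjusted p = 0.00816), with siNC at 45.7 and 41.6 FPKM. Of 51 genes of DNA replication 3 were higher and 4 lower, shares no higher than the 7.4% and 8.86% over all tested genes. GINS1, of the replicative helicase, was at 23.9 and 22.4 FPKM against 11.01 and 12.5 FPKM (-0.92 log2, adjusted p = 9.20e-04), and POLE3, a histone-fold subunit of DNA polymerase epsilon, at 87.2 and 87.7 FPKM against 47.1 and 48.7 FPKM (-0.86 log2, adjusted p = 3.41e-04). For both, siEZH2-1 lay near siNC. In the list of G2 and mitosis 4 of 52 were higher and 7 lower, or 1 and 2 without siEZH2-1 replicate 1. ANLN, which organises the contractile ring, fell against siNC with each siRNA and more with siEZH2-2 (-0.89 log2 between the siRNAs, adjusted p = 0.00315). BUB3, of the spindle checkpoint, was low with siEZH2-1 alone, at 45.3 and 45.5 FPKM against 81.8 and 84.0 FPKM, with siNC at 78.1 and 77.9 FPKM (0.85 log2, adjusted p = 2.26e-04).

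Some of the largest differences were in lists of which most members were not called. Over all tested genes 7.4% were called higher and 8.86% lower. RAB12, a small GTPase of endosome to lysosome traffic, had the highest difference of the named genes. It measured 3.43 and 3.25 FPKM with siEZH2-1, 15.6 and 14.6 FPKM with siEZH2-2 and 17.6 and 16.2 FPKM with siNC (1.89 ± 0.070 log2, adjusted p = 1.26e-04). Of 39 RAB genes tested 3 were higher and 5 lower, or 1 higher without siEZH2-1 replicate 2 and 3 lower without siEZH2-1 replicate 1. RAB31, of Golgi and endosome traffic, was lower by -0.71 log2 (adjusted p = 8.39e-04). LEO1, a subunit of the PAF complex that travels with RNA polymerase II, was at 6.59 and 6.78 FPKM with siEZH2-1, 24.2 and 23.9 FPKM with siEZH2-2 and 25.4 and 26.6 FPKM with siNC (1.70 ± 0.055 log2, adjusted p = 8.66e-05). In its list of 24 PAF and elongation factors 5 were higher and 0 lower (median 0.05 log2), or 2 higher without siEZH2-1 replicate 1. SUPT16H, of the histone chaperone FACT, was one of these (0.65 log2, adjusted p = 0.00127).

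The same held on the siEZH2-2 side, and the list counts here stand beside the same 7.4% higher and 8.86% lower. TMED10, a cargo receptor between the endoplasmic reticulum and the Golgi, measured 62.7 and 58.1 FPKM with siEZH2-1, 19.9 and 18.7 FPKM with siEZH2-2, and 60.2 and 56.6 FPKM with siNC (-1.60 ± 0.065 log2, adjusted p = 1.55e-04). It was the 1 lower gene of 32 in the list of COPII coat and export genes, of which 7 were higher, or 3 higher without siEZH2-1 replicate 2. SEC23A, a coat subunit, went the opposite way, with 2.86 and 2.4 FPKM against 6.77 and 8.11 FPKM, and siNC stood above both at 14.7 and 12.4 FPKM (1.22 ± 0.119 log2, adjusted p = 0.00155). MRPL24, a protein of the large mitochondrial ribosomal subunit, was at 50.6 and 52.5 FPKM with siEZH2-1, 15.7 and 12.3 FPKM with siEZH2-2 and 39.8 and 45.9 FPKM with siNC (-1.82 ± 0.117 log2, adjusted p = 3.72e-04). Of 73 genes of that ribosome 5 were higher and 2 lower, or 2 and 1 without siEZH2-1 replicate 1, and the median was -0.06 log2. LEPROT, which shares its first exons with the leptin receptor gene and acts on receptor traffic, was at 15.5 and 13.7 FPKM against 3.09 and 3.54 FPKM, with siNC at 13.3 and 12.6 FPKM (-1.86 ± 0.085 log2, adjusted p = 1.65e-04). Reads of overlapping exons may be divided between LEPROT and the leptin receptor gene by the counting, so this value is uncertain. Among 29 genes of leptin and JAK-STAT signalling 4 were higher and 4 lower, or 0 higher without siEZH2-1 replicate 2 and 1 lower without siEZH2-1 replicate 1.

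The other genes named by rank repeated the pattern. On the higher side, C12orf23, SFXN1 (a mitochondrial serine carrier), TMED8, TWISTNB (a subunit of RNA polymerase I), RAB11FIP1 (a RAB11 effector), COMMD2, CHAMP1 (a chromosome alignment protein), RBM47 (an RNA-binding protein) and PDHX (of the pyruvate dehydrogenase complex) differed by 1.36 to 1.74 log2. In all 9 the siEZH2-1 mean was between 24.2% and 36.5% of siNC, and the siEZH2-2 mean between 85.6% and 125% of it. SFXN1 shows the shape, with 14.8 and 14.3 FPKM, then 47.5 and 48.8 FPKM, and 47.1 and 45.6 FPKM with siNC. On the lower side, LSM5 (an RNA-binding protein of the spliceosome), TMEM2 (a cell-surface hyaluronidase), POP4 (a subunit of RNase P), FZD6 (a WNT receptor), RTN4 (which shapes the endoplasmic reticulum), SMIM13, MORF4L1 (a chromatin reader) and SYPL1 differed by -1.58 to -1.26 log2. Their siEZH2-1 means were 85.5% to 122% of siNC and their siEZH2-2 means 30.7% to 44.5%. RTN4 measured 54.4 and 50.2 FPKM, then 19.7 and 19.7 FPKM, and 52.5 and 51.3 FPKM with siNC.

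A smaller group rose above siNC with siEZH2-1. INSIG1, which holds the sterol sensor in the endoplasmic reticulum, measured 50.5 and 45.9 FPKM with siEZH2-1, 18.7 and 17.6 FPKM with siEZH2-2 and 24.9 and 24.3 FPKM with siNC (-1.36 ± 0.066 log2, adjusted p = 1.69e-04). It rose by 0.94 log2 with siEZH2-1 (adjusted p = 3.73e-04) and fell by 0.42 log2 with siEZH2-2 (adjusted p = 0.00605). ALPP, an alkaline phosphatase whose sequence is close to that of its relatives and whose value is therefore uncertain, had the same order at 8.86 and 10.4 FPKM, 3.25 and 3.43 FPKM, and 6.06 and 6.45 FPKM with siNC. MPZL3, a membrane protein of skin, stood at 205% of siNC with siEZH2-1 and at 76.9% with siEZH2-2. PERP, a desmosome protein of stratified epithelia and a p53 target, measured 85.0 and 78.2 FPKM with siEZH2-1, 36.0 and 35.2 FPKM with siEZH2-2, and 29.9 and 28.6 FPKM with siNC. It differed by -1.17 ± 0.060 log2 (adjusted p = 1.78e-04), and siEZH2-1 was again the group apart (1.45 log2 against siNC, adjusted p = 9.77e-05). Of 29 genes that p53 induces 4 were higher and 6 lower, or 0 higher without siEZH2-1 replicate 1 and 2 lower without siEZH2-1 replicate 2. PLK2, one of them, was low with siEZH2-2 alone (-0.63 log2, adjusted p = 7.60e-04).

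In the lists of metabolism and stress most members were not called, and several counts lay near the 7.4% higher and 8.86% lower over all tested genes. Of 34 genes of sterol and fatty acid synthesis 4 were higher and 4 lower, with a median of -0.07 log2, and 2 were higher without siEZH2-1 replicate 1. HMGCS1, an early enzyme of cholesterol synthesis, was low with siEZH2-2 alone, at 36.9 and 32.6 FPKM, 15.1 and 13.6 FPKM, and 31.98 and 29.53 FPKM with siNC (-1.22 ± 0.084 log2, adjusted p = 4.94e-04). SCD, the stearoyl-CoA desaturase, was low with siEZH2-1 alone, at 60.4 and 53.5 FPKM, 111 and 126 FPKM, and 127 and 119 FPKM with siNC (1.04 ± 0.087 log2, adjusted p = 8.50e-04). STARD4, a sterol carrier, followed SCD (1.08 log2, adjusted p = 0.00361). Of 25 genes of the unfolded protein response 7 were lower and 2 higher (median -0.09 log2), or 3 lower without siEZH2-1 replicate 1 and 1 higher without siEZH2-1 replicate 2. XBP1, a transcription factor of this response, was low with siEZH2-2 alone, at 24.95 and 25.37 FPKM, 14.4 and 13.6 FPKM, and 25.8 and 26.0 FPKM with siNC (-0.81 log2, adjusted p = 4.45e-04). EDEM1, which directs misfolded proteins to degradation, was higher by 0.68 log2 (adjusted p = 0.00386). Of 32 genes of glycolysis and hypoxia 2 were higher and 5 lower, or 0 higher without siEZH2-1 replicate 2 and 3 lower without siEZH2-1 replicate 1. PFKP, a phosphofructokinase, was at 115 and 120 FPKM against 68.6 and 64.2 FPKM, with siNC at 107 and 115 FPKM (-0.82 log2, adjusted p = 6.58e-04). Of 24 genes of NRF2 and glutathione 1 was higher, KEAP1 (0.48 log2, adjusted p = 0.00446), and 3 lower, or 1 lower without siEZH2-1 replicate 1.

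Growth factor and squamous identity lists held called genes of both directions, beside 7.4% higher and 8.86% lower over all tested genes. In the list of the EGF receptor family and its feedback genes, 7 of 22 were lower and 2 higher (median -0.14 log2), or 4 lower without siEZH2-1 replicate 2 and 0 higher without siEZH2-1 replicate 1. ERBB3, a receptor of this family, measured 11.9 and 12.2 FPKM with siEZH2-1, 6.80 and 6.76 FPKM with siEZH2-2 and 10.1 and 9.93 FPKM with siNC (-0.74 log2, adjusted p = 7.22e-04). Its ligand NRG1 was lower too (-0.60 log2, adjusted p = 0.00253), as was DUSP5, a phosphatase that switches off ERK (-0.80 log2, adjusted p = 6.61e-04). For NRG1 and DUSP5 siNC lay at or near siEZH2-1. Of 37 genes of basal squamous identity 9 were higher and 8 lower (median 0.02 log2), or 4 higher without siEZH2-1 replicate 2 and 2 lower without siEZH2-1 replicate 1. DSC3, a desmosomal cadherin, was higher with siEZH2-2, at 11.2 and 9.27 FPKM against 21.3 and 26.7 FPKM, with siNC at 21.4 and 18.8 FPKM (1.15 ± 0.131 log2, adjusted p = 0.0028). SOX2, a transcription factor of squamous cancers, was higher with siEZH2-2 alone, at 4.89 and 4.44 FPKM, 8.50 and 7.22 FPKM, and 4.92 and 4.77 FPKM with siNC (0.64 log2, adjusted p = 0.00598). On the lower side stood PERP, given above, and KLF5, a transcription factor of basal epithelia, at 15.9 and 14.5 FPKM, 9.04 and 10.5 FPKM, and 16.7 and 14.99 FPKM with siNC (-0.59 log2, adjusted p = 0.00855). KLF5 was not called without siEZH2-1 replicate 1 (adjusted p = 0.0504). Of 10 genes of terminal differentiation 0 were higher and 2 lower, or 1 lower without siEZH2-1 replicate 2. EMP1, a membrane protein of this list, was one (-0.78 log2, adjusted p = 8.70e-04). In the interferon list 4 of 22 were higher and 1 lower, and in the list of NF-kB and inflammation 2 of 18 were higher and 2 lower. All 4 of these counts were 0 without siEZH2-1 replicate 1.

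**Figure D4:**
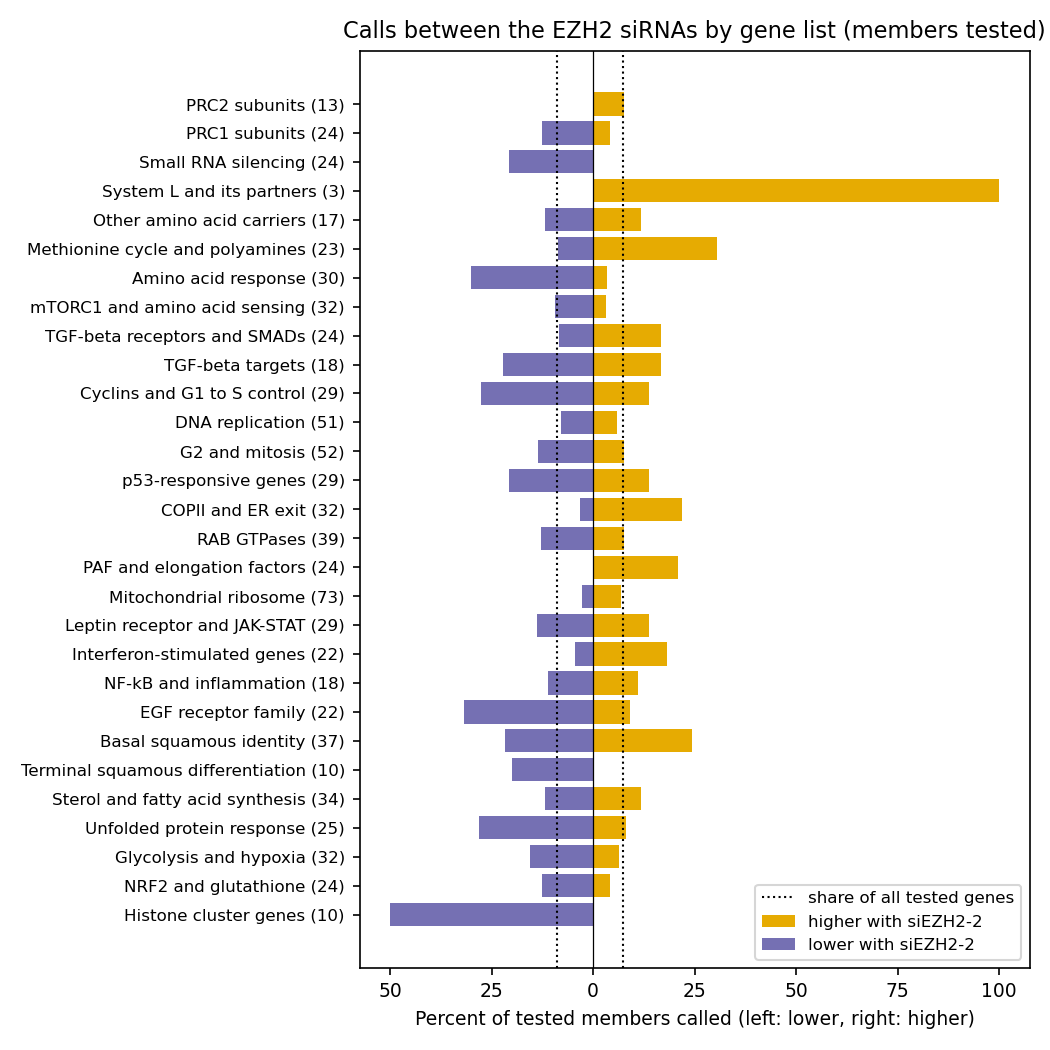
Percent of the tested members of 29 gene lists that were called lower (left) or higher (right) with siEZH2-2 than with siEZH2-1, with the number tested in brackets; the dotted lines are the shares over all tested genes, 8.86% and 7.4%. The 3 system L genes were all higher, 5 of the 10 histone genes were lower, and most other lists have members on both sides.

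Histone cluster genes were the list with the lowest median, -0.51 log2, against -0.00 log2 over all tested genes. Of 10 tested, 5 were lower with siEZH2-2 and 0 higher, and leaving out 1 library gave 4 to 7 lower. HIST1H2BJ, an H2B gene, measured 16.3 and 17.5 FPKM with siEZH2-1, 8.41 and 7.28 FPKM with siEZH2-2, and 4.21 and 4.96 FPKM with siNC (-1.02 ± 0.097 log2, adjusted p = 0.00142). HIST1H2BK, another H2B gene, measured 190 and 208 FPKM, 107 and 96.1 FPKM, and 108 and 115 FPKM with siNC (-0.96 ± 0.076 log2, adjusted p = 7.60e-04). In both the siEZH2-1 libraries were the high ones. HIST1H2AC, an H2A gene, stood at 21.4 and 21.2 FPKM, 12.4 and 11.1 FPKM, and 9.95 and 10.5 FPKM (-0.81 log2, adjusted p = 8.82e-04), and HIST1H2BD and the linker histone gene HIST1H1C differed by -0.61 and -0.49 log2. HIST1H2BD was not called without siEZH2-1 replicate 2 or siEZH2-2 replicate 2. All 5 rose with siEZH2-1 against siNC, by 0.76 to 1.68 log2. With siEZH2-2, 3 of the 10 tested were higher than siNC and 0 lower. HIST1H2BJ was 1 of these 3, with a rise of 0.66 log2 (adjusted p = 0.00464). Histone genes of 1 class are near copies of each other, and many of their transcripts carry no poly(A) tail, so their FPKM depend on how reads were assigned and how RNA was selected, which is not given in the sources used here.

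The 250 bases before the start of 3 of these genes are shown, the called ones whose windows hold the octamer ATTTGCAT. Relative to the gene start, the octamer begins at -47 in HIST1H2BJ and at -46 in HIST1H2BK. In HIST1H2AC it begins at -130 and lies on the opposite strand. The sequences are from RefSeq on build GRCh38.p14, in which HIST1H2BJ is H2BC11 (chr6:27132796-27133045, minus strand), HIST1H2BK is H2BC12 (chr6:27146859-27147108, minus strand) and HIST1H2AC is H2AC6 (chr6:26123922-26124171, plus strand). All 5 called histone genes matched an entry, and the window of 250 bases lies upstream of the transcript. Capitals mark matches on either strand to the octamer ATTTGCAT, to CCAAT and to TATAAA. Matches to TATAAA on opposite strands overlap in the first 2 sequences.
HIST1H2BJ: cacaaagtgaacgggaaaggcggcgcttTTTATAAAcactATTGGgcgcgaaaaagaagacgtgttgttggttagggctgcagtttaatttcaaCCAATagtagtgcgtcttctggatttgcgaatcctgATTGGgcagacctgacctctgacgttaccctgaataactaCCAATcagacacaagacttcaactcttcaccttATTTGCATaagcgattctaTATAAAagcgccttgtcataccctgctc
HIST1H2BK: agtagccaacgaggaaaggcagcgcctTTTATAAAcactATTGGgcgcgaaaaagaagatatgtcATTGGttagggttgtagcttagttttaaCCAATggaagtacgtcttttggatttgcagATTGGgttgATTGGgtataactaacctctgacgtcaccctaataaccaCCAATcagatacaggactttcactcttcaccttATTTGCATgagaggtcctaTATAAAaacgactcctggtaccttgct
HIST1H2AC: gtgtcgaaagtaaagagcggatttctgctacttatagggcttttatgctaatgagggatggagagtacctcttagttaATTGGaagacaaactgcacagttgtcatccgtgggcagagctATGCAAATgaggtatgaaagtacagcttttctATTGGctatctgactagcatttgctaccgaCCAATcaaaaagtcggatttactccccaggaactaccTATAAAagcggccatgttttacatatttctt
The octamer was in these 3 windows and not in those of HIST1H2BD and HIST1H1C. It was in 1.632% of the 35116 RefSeq windows of the same length, CCAAT was in 32.01% and TATAAA in 10.72%. These are matches of letters and no measure of binding. Of the histone genes only the called ones were looked at singly. The shares over all RefSeq windows therefore do not show what is usual for histone genes. Whether the octamer goes with the difference between the siRNAs was not tested.

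Knockdown of LAT1 itself gave a readout with no library in common. In that series siLAT1 was set against its own siNC, and 10804 genes were tested in both tables, of which 19.7% were higher and 15.8% lower with siLAT1. SLC7A5 differed by -2.11 log2 there and SLC3A2 by -1.13 log2 (adjusted p = 5.79e-07 and 3.76e-06), so both were low with siLAT1 and with siEZH2-1. Of the 833 genes higher with siEZH2-2, siLAT1 raised 195 (23.4%, or 9.18% of all genes siLAT1 raised) and lowered 173 (20.8%, or 10.1% of all it lowered). Of the 997 lower with siEZH2-2, siLAT1 raised 239 (24.0%, or 11.2% of all it raised) and lowered 238 (23.9%, or 13.9% of all it lowered). Across the 10804 genes Pearson's r was -0.0047 and Spearman's rho 0.0011, a description across genes, which are not independent replicates. TGFBR2 (-0.55 log2 with siLAT1), HMGCS1 (-0.84 log2) and STARD4 (-0.85 log2) fell with siLAT1. PERP (0.87 log2, adjusted p = 1.33e-05) and INSIG1 (0.29 log2, adjusted p = 7.18e-04) rose with it. MAT2B (0.04 log2), LEO1 (-0.08 log2) and RAB12 (-0.08 log2) were not called there.

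**Figure D5:**
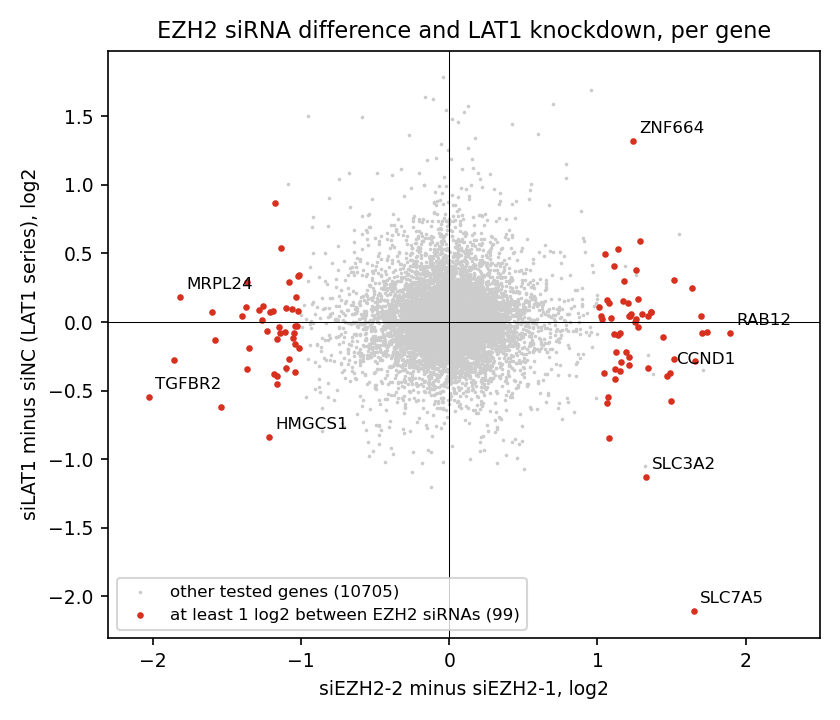
For 10804 genes tested in both tables, the log2 difference between siEZH2-2 and siEZH2-1 (horizontal) and between siLAT1 and siNC in the LAT1 series (vertical); red points are the 99 genes at or above 1 log2 between the EZH2 siRNAs. SLC7A5 and SLC3A2 lie at the lower right, and the other red points spread to both sides of 0 on the vertical axis.

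The siRNAs against LAT1 also differed from each other. Between siLAT1-3 and siLAT1-2, 2981 of 11678 genes (25.5%) were called, 1446 higher and 1535 lower with siLAT1-3. Their called differences had a median size of 0.298 log2, and 75 genes (0.642%) reached 1 log2. Over all tested genes the SD of the difference was 0.255 log2 for the LAT1 pair and 0.278 log2 for the EZH2 pair. The tables were normalized and fitted separately, and the difference between these pairs was not tested.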

How the data were processed

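RNA from KYSE510 cells was sequenced, and the authors deposited 1 table per series with 1 FPKM column per library. No label or header names the unit; FPKM was inferred from the values and the column sums. Per the submitters' processing notes, hg19 and hg38 were the builds, and the tools were Trim Galore, STAR, Bowtie, Bowtie2, SEACR and Picard, with no roles stated. Which aligner, counter, gene lengths and strand setting made these tables is not given in the sources used here. Samples were grouped by their titles and descriptions.

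Each table was cut to genes whose 6 libraries averaged 1 FPKM or more. Log2(FPKM + 1) values were fitted in limma 3.58.1 (R 4.3.3; trended empirical Bayes, 3 groups of 2 libraries, 3 residual degrees of freedom, two-sided), and p-values were adjusted by Benjamini-Hochberg over all genes tested. Tables were handled in Python 3.11.15 with pandas 2.3.3. The fit was tested on simulated data. Depth was estimated from the steps between low values of short RNA genes, which made 81.5% to 85.2% of them whole reads within 0.12 reads in the EZH2 table. The genes named were EZH2, SLC7A5 and SLC3A2, the 15 highest and 15 lowest differences among called genes with an average of at least 2 on the log2 scale and no overlap between the siRNAs, and up to 4 called members of each of 29 gene lists and of the line markers (with fewer than 2 called, up to 2 others of the highest FPKM, such as RBBP4 and RBBP7). EED, EZH1, MAT2A, HIST1H1C and the genes in the closing section were chosen after their values were seen. The members and lists were chosen with earlier results of these data known. Alternatives were other normalizations, pseudocounts, filters and fits, a replicate block and each library left out. CUT&Tag samples were not analysed here.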

Additional observations from a re-analysis of the deposited data

How the results depend on the processing

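The number of genes called between the EZH2 siRNAs, 1883, held within a factor of 1.5 under quantile normalization, median centring, a pseudocount of 0.1, a filter at 5 FPKM, a fit without siNC and robust empirical Bayes. It was 836 with no filter (362 higher, 474 lower). With each library left out in turn it ran from 650 to 1499 (258 to 665 higher, 392 to 834 lower), where an arm left with 1 library is assumed to vary like the others. The genes at 1 log2 or more numbered 173 with a pseudocount of 0.1 and 108 to 133 with 1 library left out. The share of these genes with siNC near or beyond the siRNA of the higher level ran from 64.7% to 77.8% with 1 library left out. The genes called between the LAT1 siRNAs numbered 1958 to 2536 with 1 library left out. The EZH2 difference ran from -0.19 to -0.08 log2 with 1 library left out and was called in none of these.

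The replicate numbers did not order the libraries alike in all groups. Deviations of same-numbered libraries correlated at -0.353 between siEZH2-1 and siEZH2-2, 0.355 between siEZH2-1 and siNC and -0.339 between siEZH2-2 and siNC. Same numbers thus went together in siEZH2-1 and siNC, and opposite numbers for siEZH2-2. The main fit had no term for this, and its cause was not tested. The fit with a replicate block called 1021 genes (446 higher, 575 lower) and 2703 between the LAT1 siRNAs. With the siEZH2-2 numbers exchanged, a crossed replicate block added after seeing the data, 4627 were called (2273 higher, 2354 lower) and the EZH2 difference of -0.1356 log2 had an adjusted p of 0.0488.

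Of 134 named genes 129 were called, and 73 kept the call in every alternative in which they were tested; the filter at 5 FPKM left out 3 of these, SLC43A2, SLC6A9 and SLC7A11. Signs reversed for 2 genes that were called in no fit, CSF1R (-0.0215 log2 without siEZH2-1 replicate 1 and -0.0245 log2 without siEZH2-2 replicate 1, and up to 0.0596 log2 with another library left out) and RBBP7 (-0.0206 log2 without siEZH2-1 replicate 1, and up to 0.0469 log2 with another left out). Between 13 and 25 of the 29 list counts moved by more than 1.5 times when 1 siEZH2 library was left out. The causes of these changes were not tested. With 2 libraries per group and low values of few reads, small differences and low genes are the least certain.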

Other observations

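Genes outside the lists, chosen after their values were seen, showed the same 2 orders. EIF3A, a scaffold of the translation initiation factor eIF3, measured 64.8 and 62.0 FPKM with siEZH2-1, 28.7 and 29.2 FPKM with siEZH2-2 and 74.6 and 71.7 FPKM with siNC. TFB2M, which starts mitochondrial transcription, measured 63.1 and 59.7 FPKM, 25.8 and 26.9 FPKM, and 59.5 and 59.9 FPKM. PTPN1, a tyrosine phosphatase, measured 58.9 and 55.5 FPKM, 25.6 and 25.1 FPKM, and 58.7 and 59.7 FPKM. These 3 were low with siEZH2-2. EIF5B, which joins the ribosomal subunits, measured 20.1 and 21.5 FPKM, 51.9 and 46.7 FPKM, and 43.7 and 46.4 FPKM, and ATRX, a chromatin remodeller, 4.30 and 4.10 FPKM, 10.1 and 11.4 FPKM, and 11.2 and 9.43 FPKM. Both were low with siEZH2-1.

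A few genes rose above siNC with siEZH2-2. ZNF664, a zinc finger gene, measured 14.4 and 13.5 FPKM with siEZH2-1, 31.98 and 37.01 FPKM with siEZH2-2 and 8.07 and 7.12 FPKM with siNC. It rose with both EZH2 siRNAs, and also with siLAT1 against the siNC of that series (1.32 log2, adjusted p = 9.26e-06). MMP13, a collagenase, measured 0.73 and 0.78 FPKM, 5.61 and 5.09 FPKM, and 1.91 and 2.27 FPKM. HIST1H2AG, an H2A gene outside the list, was high with siEZH2-1, at 12.5 and 11.4 FPKM against 5.17 and 5.04 FPKM, with siNC at 4.48 and 4.43 FPKM. Short RNA genes among the 105 large differences rested on few reads: the MIR23A mean came to about 4.4 reads with siEZH2-1 and 0.5 with siEZH2-2, and that of VTRNA1-2 to 0.9 and 4.9.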
